A study of Gallus gallus with 16 samples.

Results

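The response of pre-hierarchical granulosa cells (phGC) of the chicken to knockdown of FOXL2 was described across all measured genes. The 8 phGC libraries, of 16 RNA-seq libraries in the study, were chosen by their labels: 4 of the group phGC-KD and 4 of the group phGC-CT. Granulosa cells were taken from White Leghorn hens of 25 to 30 weeks, the phGC from small follicles of 6 to 8 mm, pre-cultured for 16 h, transfected with a small interfering RNA (siRNA) and collected 48 h later. phGC-KD received an siRNA against FOXL2 and phGC-CT a nonsense siRNA, and no allele or transgene was involved. Both groups share the culture, the lipid carrier and the transfection, and an untransfected group was not analysed here. The other 8 libraries, poGC-KD and poGC-CT, hold granulosa cells of pre-ovulatory follicles under the same pair of siRNAs. Of 18151 gene rows in the count files, 13829 had enough counts in phGC to be tested.

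FOXL2 is a forkhead transcription factor of granulosa cells, the epithelial layer that surrounds the oocyte and feeds it through follicle growth. In birds, the granulosa layer of the small pre-hierarchical follicles carries receptors for follicle-stimulating hormone but makes little steroid, and from this pool single follicles are selected into the pre-ovulatory hierarchy. In mammals FOXL2 holds granulosa cells in their female identity and acts on genes of the TGF-beta family and of steroid synthesis. An siRNA works through its antisense strand, which guides the silencing complex to complementary transcripts, and the bases near its start, the seed, can also pair with unrelated transcripts.

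The siRNA pair defines the comparison, so both duplexes are shown, each strand 5′ to 3′ with the seed of the antisense strand (bases 2 to 8) and its complement on the sense strand in capitals.
FOXL2-siRNA sense: gccucaacgagUGCUUCAutt
FOXL2-siRNA antisense: aUGAAGCAcucguugaggctt
NC-siRNA sense: uucuccgaacgUGUCACGutt
NC-siRNA antisense: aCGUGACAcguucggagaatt
In each duplex the strands pair over 19 bases and end in an overhang of tt. The antisense strands differ in their seeds, and each group had 1 siRNA sequence, so changes that follow the loss of FOXL2 and changes that follow the seed of either duplex cannot be told apart.

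Library totals were 29979116 to 44937588 counts in phGC-KD, against 30476674 to 32997177 counts in phGC-CT. The granulosa markers summed to 3232 to 4097 CPM (counts scaled to a common library size) in phGC-KD and 2946 to 3459 CPM in phGC-CT, and all 16 of them were tested. A large part of this sum was AMH, at 1420 to 2300 CPM in phGC-KD and 1290 to 1760 CPM in phGC-CT, and the markers include FOXL2 itself. On the first principal component of all rows, which held 23.5% of the variance, phGC-KD lay between -36.8 and -23.6, against 13.2 and 39.2 as the ends of phGC-CT. Library phGC-KD 2 stood apart on the second component, at -57.8. The study's methods call the samples biological duplicates and mention several hens, but the sources used here tie no library to a hen or a culture. The p-values measure the spread between these libraries, which may in part be technical.

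FOXL2 itself, the targeted gene, had 13693, 17299, 13466 and 12339 normalized counts in phGC-KD libraries 1 to 4, against 16134, 16936, 23419 and 20205 in phGC-CT libraries 1 to 4. A normalized count is the count divided by the effective size of the library and multiplied by the mean effective size of the 8. Library phGC-KD 2 lay above the lowest pair of phGC-CT libraries, so the groups overlapped. The fitted level in phGC-KD was 74.1% of that in phGC-CT, a log2 fold change of -0.43 with a standard error (SE) of 0.14 (edgeR quasi-likelihood test with Benjamini-Hochberg adjustment, adjusted p = 0.0878). An exact two-sided permutation test over the libraries gave p = 0.0857, where the smallest p possible with 4 against 4 libraries is 0.0286. Without phGC-KD 2 the log2 fold change was -0.54 (edgeR adjusted p = 0.0492), without phGC-CT 1 it was -0.51 (edgeR adjusted p = 0.0489), and without both it was -0.62 (edgeR adjusted p = 0.024). These were the phGC-KD library with the most FOXL2 counts and the phGC-CT library with the fewest. Their omission therefore enlarges the difference. When any other single library was left out, FOXL2 did not pass (edgeR adjusted p 0.111 to 0.195). Its transcript remained abundant in both groups, at a mean of 317.7 FPKM in phGC-KD and 424.4 FPKM in phGC-CT (fragments scaled to transcript length and library size). The study itself reported significantly less FOXL2 transcript in phGC-KD by quantitative PCR of the same RNA samples. It also reported less FOXL2 protein by Western blot, and protein was not measured here.

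Across the 13829 rows, 1379 (9.97%) passed an adjusted p of 0.05, and this is what "rose" and "fell" stand for below. Of these, 700 (5.06%) were higher in phGC-KD and 679 (4.91%) lower, with median log2 fold changes of 0.56 and -0.52, against -0.01 over all rows tested. The fold change exceeded 1.5 in 326 of the rows that rose and in 277 of those that fell, and it exceeded 2 in 125 and 87 of them. The phGC-KD and phGC-CT libraries did not overlap in 2558 rows (18.5%). By the criterion of a fold change above 1.5 with an unadjusted p under 0.05, 1006 rows (7.27%) were differentially expressed, 525 higher (3.8%) and 481 lower (3.48%). The number of calls depended on single libraries. Without phGC-CT 4 there were 323 rises and 339 falls, and without phGC-CT 1 there were 1124 rises and 825 falls. Rises numbered 402, 405, 419 and 375 without phGC-KD 1, phGC-KD 3, phGC-KD 4 and phGC-CT 2, and falls 394, 385 and 382 without phGC-KD 1, phGC-KD 3 and phGC-CT 2. The rises and falls lie on both sides of the zero line over the whole range of counts, as the plot of fold change against mean count shows.

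**Figure D1:**
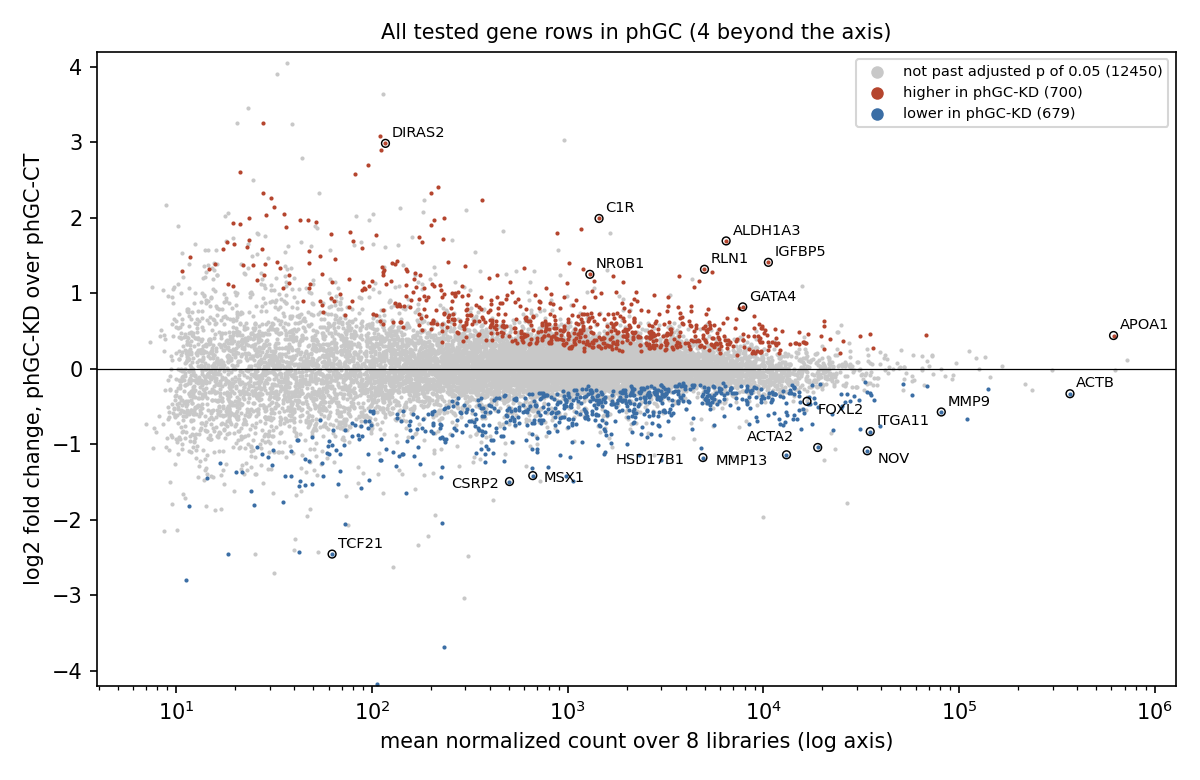
Log2 fold change of phGC-KD over phGC-CT (vertical axis) against the mean normalized count over the 8 libraries (horizontal log axis), 1 point per gene row tested. Red points (700) rose and blue points (679) fell at an adjusted p of 0.05, grey points did not pass, and named genes are circled, FOXL2 among those that did not pass.

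Among 8262 well-counted rows, with a mean of at least 500 normalized counts, 968 (11.7%) passed, 469 (5.68%) higher and 499 (6.04%) lower. In 256 of them the fold change also exceeded 1.5 with no overlap between the groups, 127 higher and 129 lower. From these the 15 steepest rises and the 15 steepest falls were taken, passing over LOC symbols without a synonym in RefSeq. The lack of overlap in these 30 genes thus follows from their selection. Of them, 28 passed under every alternative tried, the exceptions being FJX1 and CNNM2.

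The steepest rise belonged to C1R, a protease subunit of the first complement component. It had 2120, 2455, 2100 and 2554 normalized counts in phGC-KD, against 587, 625, 558 and 555 in phGC-CT (log2 fold change 1.99, SE 0.09, edgeR adjusted p = 4.00e-05). C1S, the protease that C1R activates, had 2186, 2674, 2157 and 2522 in phGC-KD, against 1085, 954, 1039 and 1009 in phGC-CT (1.22, SE 0.09, edgeR adjusted p = 0.000333). For both genes every phGC-KD library held about the same level, far above a narrow band of phGC-CT libraries. In the RefSeq annotation of the assembly GRCg7b the genes are direct neighbours on chromosome 1.

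ALDH1A3, an enzyme that oxidises retinal to retinoic acid, had 10064, 9269, 9798 and 10233 normalized counts in phGC-KD, against 3812, 2566, 2820 and 2993 in phGC-CT (log2 fold change 1.69, SE 0.12, edgeR adjusted p = 0.000204). RDH12, a reductase of retinal, had 22727, 26435, 24904 and 24927 in phGC-KD, against 14456, 16564, 16193 and 16584 in phGC-CT (0.63, SE 0.07, edgeR adjusted p = 0.00127). Neither gene had a phGC-CT library within reach of the lowest phGC-KD library.

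GSTT1, a glutathione S-transferase, had 1250, 1312, 1363 and 1550 normalized counts in phGC-KD, against 375, 392, 423 and 390 in phGC-CT (log2 fold change 1.79, SE 0.09, edgeR adjusted p = 5.03e-05). ASTN2, an astrotactin known from neuronal migration in the mouse, had 2020, 1749, 1764 and 1796 in phGC-KD, against 441, 581, 488 and 526 in phGC-CT (1.85, SE 0.10, edgeR adjusted p = 7.18e-05). The spread within each group was small beside the gap between them for both genes. RLN1, of the relaxin hormone family, had 6811, 8966, 6672 and 6054 in phGC-KD, against 2515, 2904, 2922 and 3112 in phGC-CT (1.32, SE 0.12, edgeR adjusted p = 0.000758). Its highest phGC-KD library was phGC-KD 2, and its lowest still lay well above every phGC-CT library.

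Other steep rises had mean normalized counts of 7771 in phGC-KD against 3190 in phGC-CT for EML4, a microtubule-binding protein, and of 6477 against 2904 for STXBP5, which binds syntaxin in vesicle fusion. FAM107B had a log2 fold change of 1.23 (SE 0.06), PLACL2 of 1.39 (SE 0.13) and FAM78A of 1.32 (SE 0.10). EGFL7, a secreted factor of blood vessels, had 1.16 (SE 0.11), and COL6A3, a chain of collagen VI, had 1.15 (SE 0.17). In all 7 of these genes the 4 phGC-KD libraries lay above the 4 phGC-CT libraries, as their selection required.

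The steepest fall among well-counted genes was that of CSRP2, a LIM-domain protein of smooth muscle, with 229, 289, 253 and 284 normalized counts in phGC-KD, against 744, 633, 939 and 657 in phGC-CT (log2 fold change -1.50, SE 0.15, edgeR adjusted p = 0.000866). LFNG, a Fringe glycosyltransferase that modifies Notch receptors, had 575, 467, 528 and 676 in phGC-KD, against 1615, 1344, 1709 and 1614 in phGC-CT (-1.48, SE 0.13, edgeR adjusted p = 0.000497). MSX1, a homeobox transcription factor, had 341, 393, 365 and 344 in phGC-KD, against 823, 867, 1080 and 1086 in phGC-CT (-1.42, SE 0.12, edgeR adjusted p = 0.000487). All 3 genes were uniformly low in phGC-KD, with no phGC-CT library near them.

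HSD17B1, the hydroxysteroid dehydrogenase that converts estrone to estradiol, had 3110, 3561, 2724 and 2632 normalized counts in phGC-KD, against 5384, 6951, 8072 and 6807 in phGC-CT (log2 fold change -1.18, SE 0.14, edgeR adjusted p = 0.0018). BHMT, a methyltransferase that makes methionine from homocysteine, had 1676, 1481, 2034 and 1985 in phGC-KD, against 4072, 4072, 4660 and 3842 in phGC-CT (-1.21, SE 0.11, edgeR adjusted p = 0.000698). FABP7, a fatty acid carrier, had 348, 402, 377 and 375 in phGC-KD, against 907, 989, 972 and 863 in phGC-CT (-1.31, SE 0.08, edgeR adjusted p = 0.000178). The groups were apart in each of the 3, and phGC-CT 1 was the lowest control library for HSD17B1.

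MDK, the growth factor midkine, averaged 982 normalized counts in phGC-KD and 2114 in phGC-CT (SD 60.8 and 352, n = 4 each). KIF25, a kinesin motor, averaged 440 in phGC-KD and 944 in phGC-CT (SD 6.9 and 87.2, n = 4 each). CCL4, a chemokine whose symbol several rows share, averaged 455 in phGC-KD and 1123 in phGC-CT in the row that passed (SD 59.8 and 147, n = 4 each). FJX1 and CNNM2 had log2 fold changes of -1.15 (SE 0.31, edgeR adjusted p = 0.0487) and -1.13 (SE 0.28, edgeR adjusted p = 0.0376). Their calls were lost without phGC-KD 1, phGC-KD 2, phGC-KD 4, phGC-CT 2 or phGC-CT 4, that of FJX1 also without phGC-KD 3, with adjusted p up to 0.119 for FJX1 and 0.105 for CNNM2 in edgeR. The plot of normalized counts per library sets 15 genes that passed beside FOXL2, whose groups overlap.

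**Figure D2:**
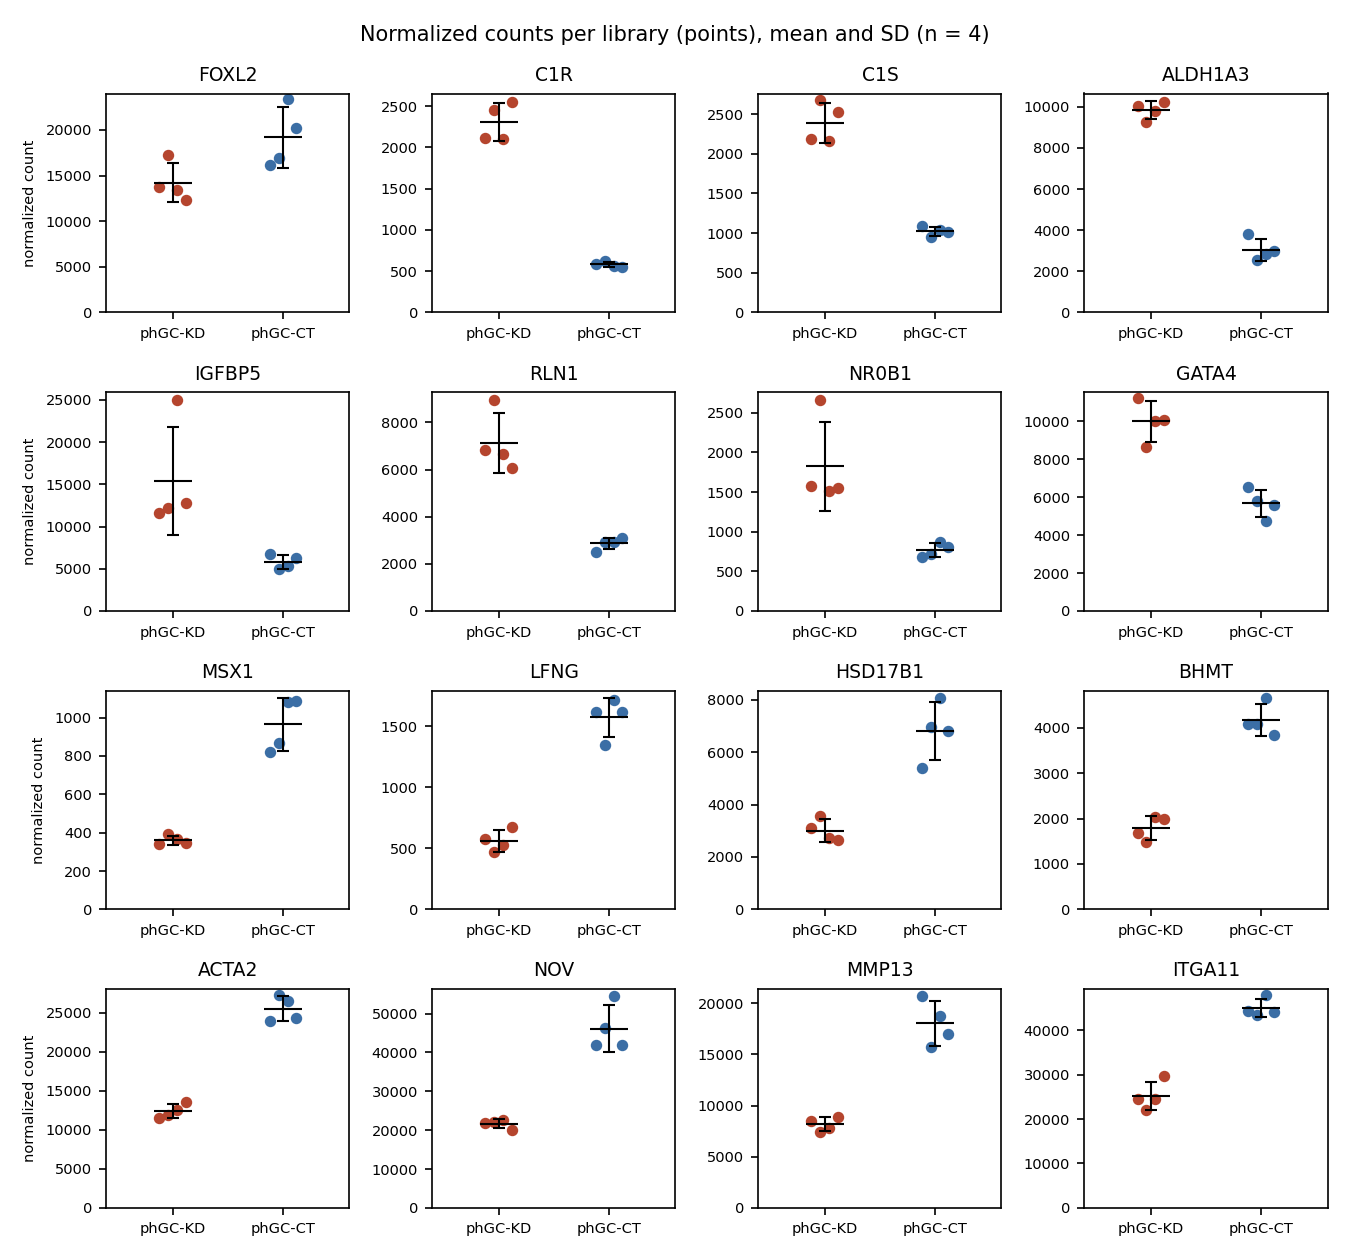
Normalized counts (vertical axes, from 0) of 16 genes in the 4 phGC-KD and the 4 phGC-CT libraries, 1 point per library, with the group mean and SD. Of the 16, FOXL2 alone has groups that overlap, and for IGFBP5 and NR0B1 a single phGC-KD library, at 24933 and 2662 counts, lies far above the other 3. Genes drawn from the 30 steepest changes were chosen for no overlap.

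Measured as the difference in mean counts, the largest rise was that of APOA1, the main protein of high-density lipoprotein. It had 647656, 797317, 687619 and 698622 normalized counts in phGC-KD, against 421747, 524342, 609221 and 534541 in phGC-CT (log2 fold change 0.44, SE 0.11, edgeR adjusted p = 0.0372). APOA1 took 1.94% to 2.35% of all counts in phGC-KD, against 1.26% to 1.72% of those in phGC-CT. The groups did not overlap, but the call was lost when any 1 library other than phGC-CT 1 or phGC-CT 3 was left out (edgeR adjusted p up to 0.0982). ASPH, TIMP3, PLXNA1, DAG1 and ITM2B, with IGFBP5, ALDH1A3 and RDH12, were among the other large rises.

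The largest fall in counts was that of ACTB, beta-actin, often used as a reference gene. It had 327033, 292930, 344264 and 340092 normalized counts in phGC-KD, against 378076, 414029, 440667 and 409969 in phGC-CT (log2 fold change -0.33, SE 0.07, edgeR adjusted p = 0.0169). The groups did not overlap, and phGC-KD 2 was lowest. Without phGC-CT 2 or without phGC-CT 4 the call was lost (edgeR adjusted p up to 0.0539). LOC776816, which RefSeq lists under the synonym ACTG1 for gamma-actin, had a log2 fold change of -0.28 (SE 0.07, edgeR adjusted p = 0.0372), lost in 7 of the 8 fits that left out 1 library. VIM, the intermediate filament protein vimentin, averaged 50658 in phGC-KD and 64303 in phGC-CT (SD 2368 and 4210, n = 4 each, -0.34, SE 0.06, edgeR adjusted p = 0.0119). APLP2, a relative of the amyloid precursor protein, averaged 84733 in phGC-KD and 134252 in phGC-CT (SD 3423 and 7083, n = 4 each, -0.66, SE 0.06, edgeR adjusted p = 0.000497). Of the 20 largest changes in counts, 12 passed under every alternative, and APOA1, ACTB, LOC776816, DAG1, MMP9, PLAU, PLXNA1 and TIMP3 did not.

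Functions were then followed through gene lists, each read by how many of its tested rows rose and fell beside the 5.06% and 4.91% of all rows. Among the lists of functions and gene families drawn as bars, the contractile list had the largest share of falls, and lipid transport and gonadal transcription factors the largest shares of rises.

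**Figure D3:**
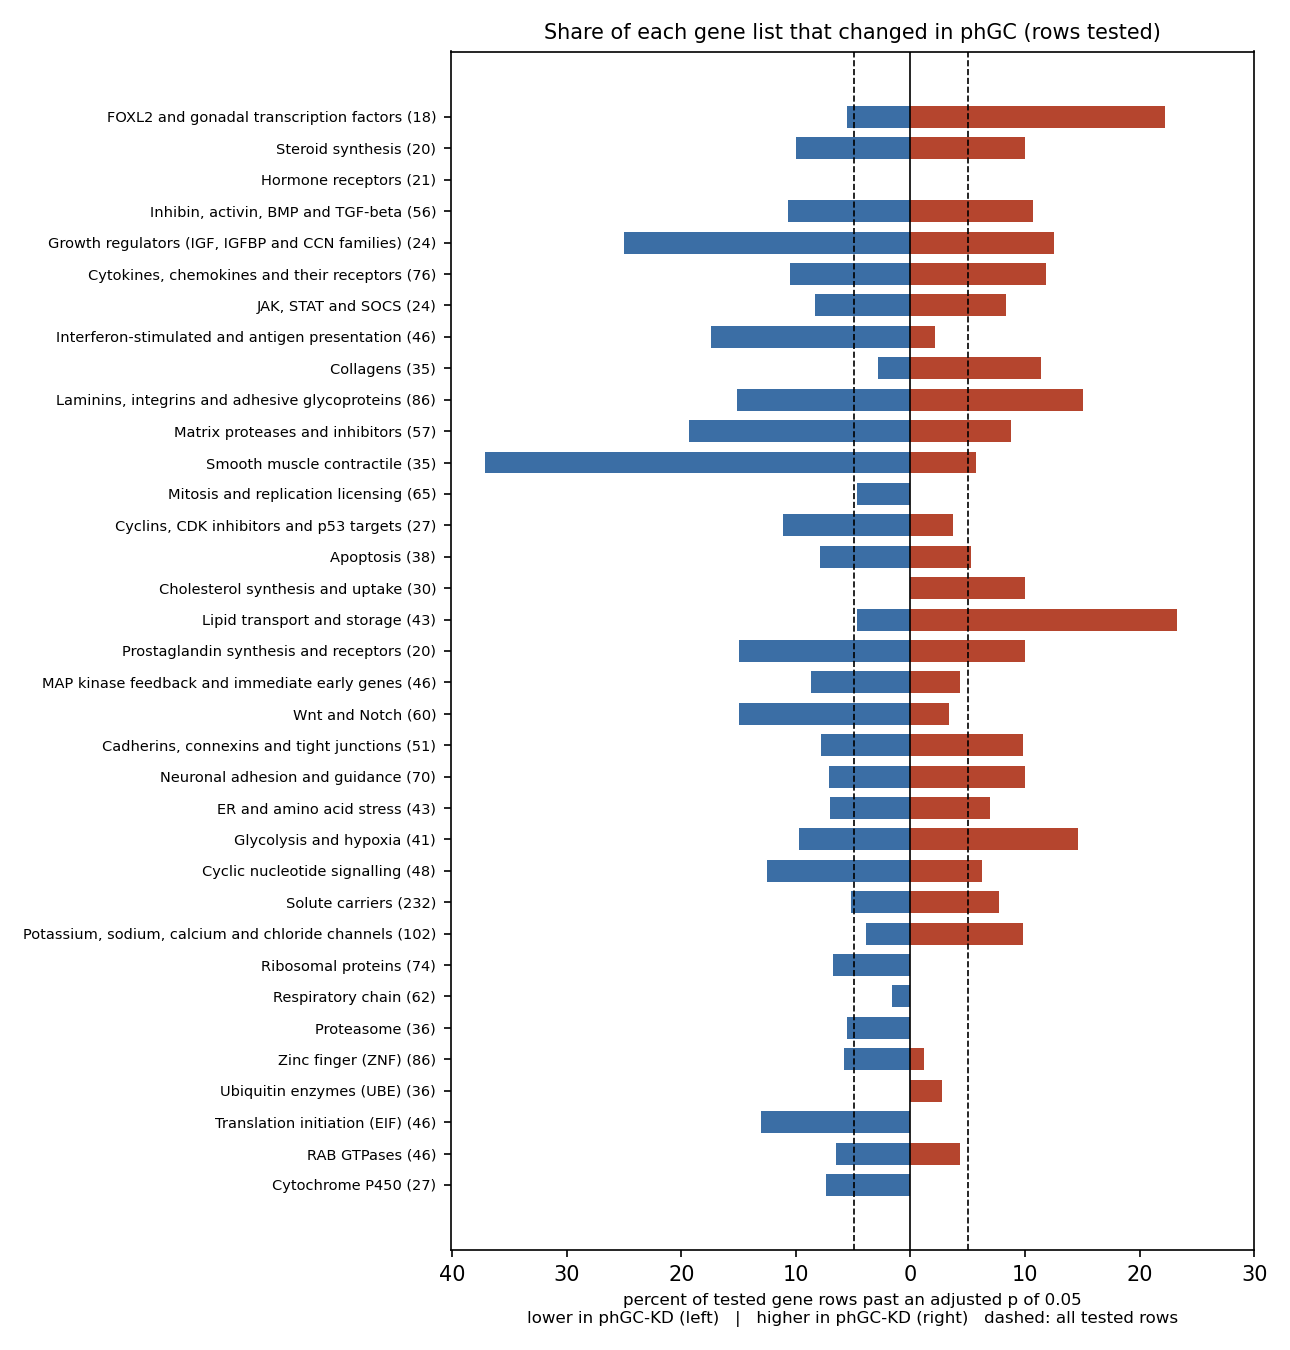
Percent of the tested rows of each gene list (number of rows in brackets) that passed an adjusted p of 0.05, with rows lower in phGC-KD to the left and rows higher to the right. Dashed lines mark the share of all 13829 rows, 5.06% higher and 4.91% lower, and contractile genes reach 37.1% on the left, lipid transport 23.3% on the right.

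Among 18 tested rows of gonadal transcription factors, 4 rose and 1 fell (median log2 fold change 0.26). NR0B1, the orphan nuclear receptor DAX1, which represses steroidogenic factors, had 1570, 2662, 1514 and 1555 normalized counts in phGC-KD, against 677, 717, 866 and 811 in phGC-CT (log2 fold change 1.25, SE 0.19, edgeR adjusted p = 0.00555). Library phGC-KD 2 stood far above the other 3, and without it the log2 fold change was 1.01. GATA4, a zinc finger factor of gonadal somatic cells, had 11229, 8634, 10031 and 10088 in phGC-KD, against 6536, 5789, 4770 and 5597 in phGC-CT (0.82, SE 0.11, edgeR adjusted p = 0.00325). NR5A1, steroidogenic factor 1, had 6505, 7177, 6732 and 7347 in phGC-KD, against 4438, 4848, 5113 and 4977 in phGC-CT (0.52, SE 0.07, edgeR adjusted p = 0.0025). Both were higher in each phGC-KD library than in any phGC-CT library. TCF21, a basic helix-loop-helix factor of mesenchyme, had 20.1, 26.1, 11.5 and 19.2 in phGC-KD, against 85.3, 94.3, 146 and 96.9 in phGC-CT (-2.46, SE 0.29, edgeR adjusted p = 0.00202). It was a rare transcript in both groups, with every phGC-KD library below every phGC-CT library. FOXO1 rose by 0.47 (SE 0.12, edgeR adjusted p = 0.042), a call lost without any 1 library but phGC-CT 1. Without phGC-KD 2 or phGC-CT 1 the list had 2 falls.

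Steroid synthesis gave 2 rises and 2 falls in 20 rows (median log2 fold change 0.09). Beside the fall of HSD17B1, CYB5A, cytochrome b5, which assists the lyase step of androgen synthesis, averaged 5648 normalized counts in phGC-KD and 4155 in phGC-CT (log2 fold change 0.44, SE 0.06, edgeR adjusted p = 0.00394). SULT1E1, an estrogen sulfotransferase, and POR, the electron donor of cytochrome P450 enzymes, passed at 0.54 (SE 0.12) and -0.26 (SE 0.06), and both calls were lost without phGC-KD 1, phGC-KD 2, phGC-KD 4, phGC-CT 2 or phGC-CT 4, that of POR also without phGC-KD 3 or phGC-CT 3. The genes STAR and CYP11A1, which bring cholesterol to pregnenolone, did not pass. STAR, which moves cholesterol into mitochondria, had 1419, 2638, 1952 and 1951 in phGC-KD, against 1370, 1441, 1502 and 1521 in phGC-CT (0.45, SE 0.16, edgeR adjusted p = 0.119). CYP11A1, the side-chain cleavage enzyme, averaged 5925 in phGC-KD and 5424 in phGC-CT (0.13, SE 0.10, edgeR adjusted p = 0.441). STAR overlapped through phGC-KD 1 alone, and CYP11A1 broadly.

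Of 21 hormone receptor rows, 0 passed in edgeR, and DESeq2 called 4 rises. In edgeR 8 had an unadjusted p under 0.05 in the direction of a rise and 2 in that of a fall. Over all rows, 3631 of 13829 had such a p in either direction. Without phGC-CT 1 edgeR called 2 rises. Over all alternatives the rises reached 5 and the falls 1. FSHR, the receptor of follicle-stimulating hormone, averaged 3522 normalized counts in phGC-KD and 2995 in phGC-CT (log2 fold change 0.23, SE 0.13, edgeR adjusted p = 0.279). LHCGR, the receptor of luteinizing hormone, averaged 2371 in phGC-KD and 3334 in phGC-CT (-0.49, SE 0.28, edgeR adjusted p = 0.303).

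The inhibin, activin, BMP and TGF-beta genes, through which oocyte and granulosa cells signal, gave 6 rises and 6 falls in 56 rows (median log2 fold change 0.09). Among ligands, BMP3, which opposes other BMPs, fell to 130, 41.9, 81.6 and 98.9 normalized counts in phGC-KD, against 391, 433, 249 and 389 in phGC-CT (log2 fold change -2.04, SE 0.32, edgeR adjusted p = 0.00608). BMP2 averaged 2809 in phGC-KD and 2217 in phGC-CT (0.34, SE 0.06, edgeR adjusted p = 0.00842). Neither ligand overlapped between the groups. AMH, the anti-Müllerian hormone of small follicles, averaged 62194 in phGC-KD and 54660 in phGC-CT (0.19, SE 0.16, edgeR adjusted p = 0.503), and INHA, the inhibin alpha subunit, 979 in phGC-KD and 817 in phGC-CT (0.26, SE 0.17, edgeR adjusted p = 0.37).

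Of the receptors, BMPR2, a type II receptor of BMPs, had 7760, 6575, 6322 and 5838 normalized counts in phGC-KD, against 4696, 3606, 3241 and 3816 in phGC-CT (log2 fold change 0.79, SE 0.13, edgeR adjusted p = 0.00653). ACVR1, a type I receptor, had 2148, 2516, 2208 and 2464 in phGC-KD, against 3758, 3451, 3508 and 3244 in phGC-CT (-0.58, SE 0.08, edgeR adjusted p = 0.00276). These receptors moved in opposite directions, each without overlap of the groups. Among binding proteins and antagonists, LTBP1 rose (0.53, SE 0.09), while LTBP2 (-1.15, SE 0.10), NBL1 (-0.74, SE 0.09) and FSTL1 (-0.35, SE 0.05) fell. SMAD5, ID3, BMP5 and BMP4 passed with all 8 libraries but not in at least 5 of the 8 fits that left out 1, and without phGC-CT 2 or phGC-CT 4 the list had 3 rises.

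The IGF, IGFBP and CCN families, secreted proteins that bind growth factors or matrix, gave 3 rises and 6 falls in 24 rows (25% lower, median log2 fold change -0.14). IGFBP5, a binding protein of insulin-like growth factors, had 11598, 12185, 24933 and 12832 normalized counts in phGC-KD, against 6736, 4907, 5326 and 6237 in phGC-CT (log2 fold change 1.41, SE 0.25, edgeR adjusted p = 0.00984). Library phGC-KD 3 stood far above the other 3, and without it the log2 fold change was 1.07. IGFBP2 moved the other way, with 7218, 7517, 6697 and 6810 in phGC-KD, against 10615, 11098, 13500 and 10686 in phGC-CT (-0.70, SE 0.09, edgeR adjusted p = 0.00236). Both kept their groups apart.

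NOV, a matricellular protein of the CCN family, had 21945, 22009, 22666 and 20133 normalized counts in phGC-KD, against 41859, 46167, 54585 and 41854 in phGC-CT (log2 fold change -1.09, SE 0.09, edgeR adjusted p = 0.000497). CYR61, its relative and a target of the Hippo pathway, had 2982, 3388, 2779 and 3242 in phGC-KD, against 6685, 5227, 7698 and 6170 in phGC-CT (-1.06, SE 0.12, edgeR adjusted p = 0.00148). Both were tightly grouped in phGC-KD and highest in phGC-CT 3. CTGF, another CCN gene, passed at -0.32 (SE 0.07, edgeR adjusted p = 0.025), a call lost without phGC-KD 1, phGC-KD 3, phGC-KD 4 or phGC-CT 4. Without phGC-KD 1 or phGC-CT 4 the list had 4 falls, and without phGC-CT 1 it had 5 rises.

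The contractile genes of smooth muscle, actins and the proteins that bind them, gave 13 falls and 2 rises in 35 rows (37.1% lower, median log2 fold change -0.34). In sign, 29 of the 35 were lower, beside 7025 of all 13829 rows. Leaving out single libraries left 9 to 13 falls. ACTA2, smooth muscle alpha-actin, had 11499, 11882, 12547 and 13499 normalized counts in phGC-KD, against 23949, 27223, 26526 and 24286 in phGC-CT (log2 fold change -1.05, SE 0.07, edgeR adjusted p = 0.000204). TAGLN, transgelin, an actin cross-linker, had 545, 666, 694 and 631 in phGC-KD, against 1238, 1198, 1786 and 1473 in phGC-CT (-1.17, SE 0.14, edgeR adjusted p = 0.00215). No library of phGC-KD came near the lowest of phGC-CT for either gene. With CSRP2, the calponin CNN2 (-0.63, SE 0.08) and the alpha-actinin ACTN1 (-0.52, SE 0.07) also fell. The tropomyosin TPM1 (-0.62, SE 0.13, edgeR adjusted p = 0.0183) was lost without phGC-CT 2 or phGC-CT 4. Both rises were of TMOD1, which caps actin filaments, from few counts, and of LPP, a LIM protein of focal adhesions (0.71, SE 0.18), a call lost in 6 of the 8 fits that left out 1 library.

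ACTA2 and TCF21 are also members of the theca and stroma marker list, in which they were the 2 rows that fell of 13 tested. In bulk RNA, fewer cells of a type and less RNA per cell cannot be told apart. The summed level of that list was 5542 to 6697 CPM in phGC-KD and 6355 to 7243 CPM in phGC-CT, so the groups overlapped. Most of this sum was COL3A1, at 3540 to 4340 CPM in phGC-KD, against 4090 to 4930 CPM in phGC-CT. CYP19A1, the aromatase made by theca of the hen, was at 0 CPM in every phGC-KD library and at 0 to 0.0921 CPM in phGC-CT, and DCN, decorin of stroma, was at most 0.427 CPM in all. Other members were well counted. CYP17A1, an enzyme of androgen synthesis in theca, was at 117 to 192 CPM in phGC-KD, against 80.4 to 155 CPM in phGC-CT, and COL1A1 at 964 to 1310 CPM in phGC-KD, against 730 to 1030 CPM in phGC-CT. COL1A2 was at 275 to 427 CPM in phGC-KD, against 448 to 509 CPM in phGC-CT, and PDGFRB at 66.4 to 86.2 CPM in phGC-KD, against 65 to 81.6 CPM in phGC-CT. None of these 4 passed, nor did COL3A1, and the part of such cells in the falls of contractile genes was not tested.

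Extracellular matrix moved in both directions. Laminins, integrins and adhesive glycoproteins gave 13 rises and 13 falls in 86 rows (15.1% each way, median log2 fold change 0.04), with 4 rises without phGC-CT 4. ITGA11, an integrin subunit that binds fibrillar collagen, had 24597, 22129, 24529 and 29676 normalized counts in phGC-KD, against 44341, 43461, 47980 and 44148 in phGC-CT (log2 fold change -0.83, SE 0.09, edgeR adjusted p = 0.0012). ITGB5, an integrin subunit for vitronectin, had 2354, 2579, 2360 and 2535 in phGC-KD, against 1237, 1439, 1511 and 1464 in phGC-CT (0.80, SE 0.08, edgeR adjusted p = 0.00089). Each integrin was at a uniform level within a group and apart from the other group. LAMC3, a laminin gamma chain of basement membranes, rose (0.91, SE 0.12), and LAMB1, a beta chain, fell (-0.53, SE 0.09).

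Of 5 fibulins tested, glycoproteins of elastic fibres and basement membranes, 3 fell, while FBLN2 (0.18, SE 0.17) and FBLN7 (0.48, SE 0.27) did not pass. FBLN5 had 701, 359, 567 and 487 normalized counts in phGC-KD, against 1618, 1638, 1085 and 1342 in phGC-CT (log2 fold change -1.42, SE 0.21, edgeR adjusted p = 0.00459). EFEMP1, fibulin 3, had 11528, 11923, 10838 and 11025 in phGC-KD, against 20580, 19297, 19413 and 19380 in phGC-CT (-0.80, SE 0.05, edgeR adjusted p = 0.000204). FBLN1 averaged 6346 in phGC-KD and 10564 in phGC-CT (-0.74, SE 0.12, edgeR adjusted p = 0.00734). Groups did not overlap for any of these 3, and this grouping was made after their values were seen. CD44, the receptor of hyaluronan, fell (-0.89, SE 0.13), as did RELN, reelin (-0.87, SE 0.10). Among collagens 4 of 35 rows rose and 1 fell (median log2 fold change 0.14), with COL6A3 up and COL8A1, a chain of collagen VIII, at a mean of 284 in phGC-KD and 661 in phGC-CT (-1.22, SE 0.16, edgeR adjusted p = 0.00298). Without phGC-KD 4 there were 3 falls among collagens.

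Matrix proteases and their inhibitors gave 5 rises and 11 falls in 57 rows (19.3% lower, median log2 fold change -0.11). MMP13, a collagenase, had 8529, 7461, 7804 and 8912 normalized counts in phGC-KD, against 20736, 15694, 18732 and 16999 in phGC-CT (log2 fold change -1.14, SE 0.10, edgeR adjusted p = 0.000497). MMP10, a stromelysin and its direct neighbour on chromosome 1 in the RefSeq annotation, fell as well (-0.64, SE 0.12, edgeR adjusted p = 0.012). MMP9, a gelatinase, had 50616, 78564, 59638 and 71584 in phGC-KD, against 92071, 81387, 114382 and 100003 in phGC-CT (-0.57, SE 0.15, edgeR adjusted p = 0.0427). For MMP9 phGC-KD 2 came close to phGC-CT 2, and its call was lost without phGC-KD 1, phGC-KD 3, phGC-KD 4, phGC-CT 2, phGC-CT 3 or phGC-CT 4 (edgeR adjusted p up to 0.11).

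PLAU, the urokinase that activates plasminogen, had 18816, 28361, 20606 and 23660 normalized counts in phGC-KD, against 40940, 30749, 48000 and 38894 in phGC-CT (log2 fold change -0.79, SE 0.16, edgeR adjusted p = 0.016). Again phGC-KD 2 and phGC-CT 2 were nearest to each other, and without phGC-KD 3 the adjusted p was 0.0522 in edgeR. SERPINF1, a serpin that restrains vessel growth, rose to 2414, 3005, 2405 and 2692 in phGC-KD, against 1055, 1279, 1288 and 1142 in phGC-CT (1.14, SE 0.10, edgeR adjusted p = 0.000578). TIMP4, a metalloprotease inhibitor, fell (-0.95, SE 0.12), and TIMP3, another, passed at 0.44 (SE 0.11, edgeR adjusted p = 0.0376), a call lost in 6 of the 8 fits that left out 1 library. Without phGC-KD 3 the list had 6 falls, without phGC-CT 4 it had 1 rise and without phGC-CT 1 it had 9 rises. All members that passed in 4 of these lists are drawn with their standard errors.

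**Figure D4:**
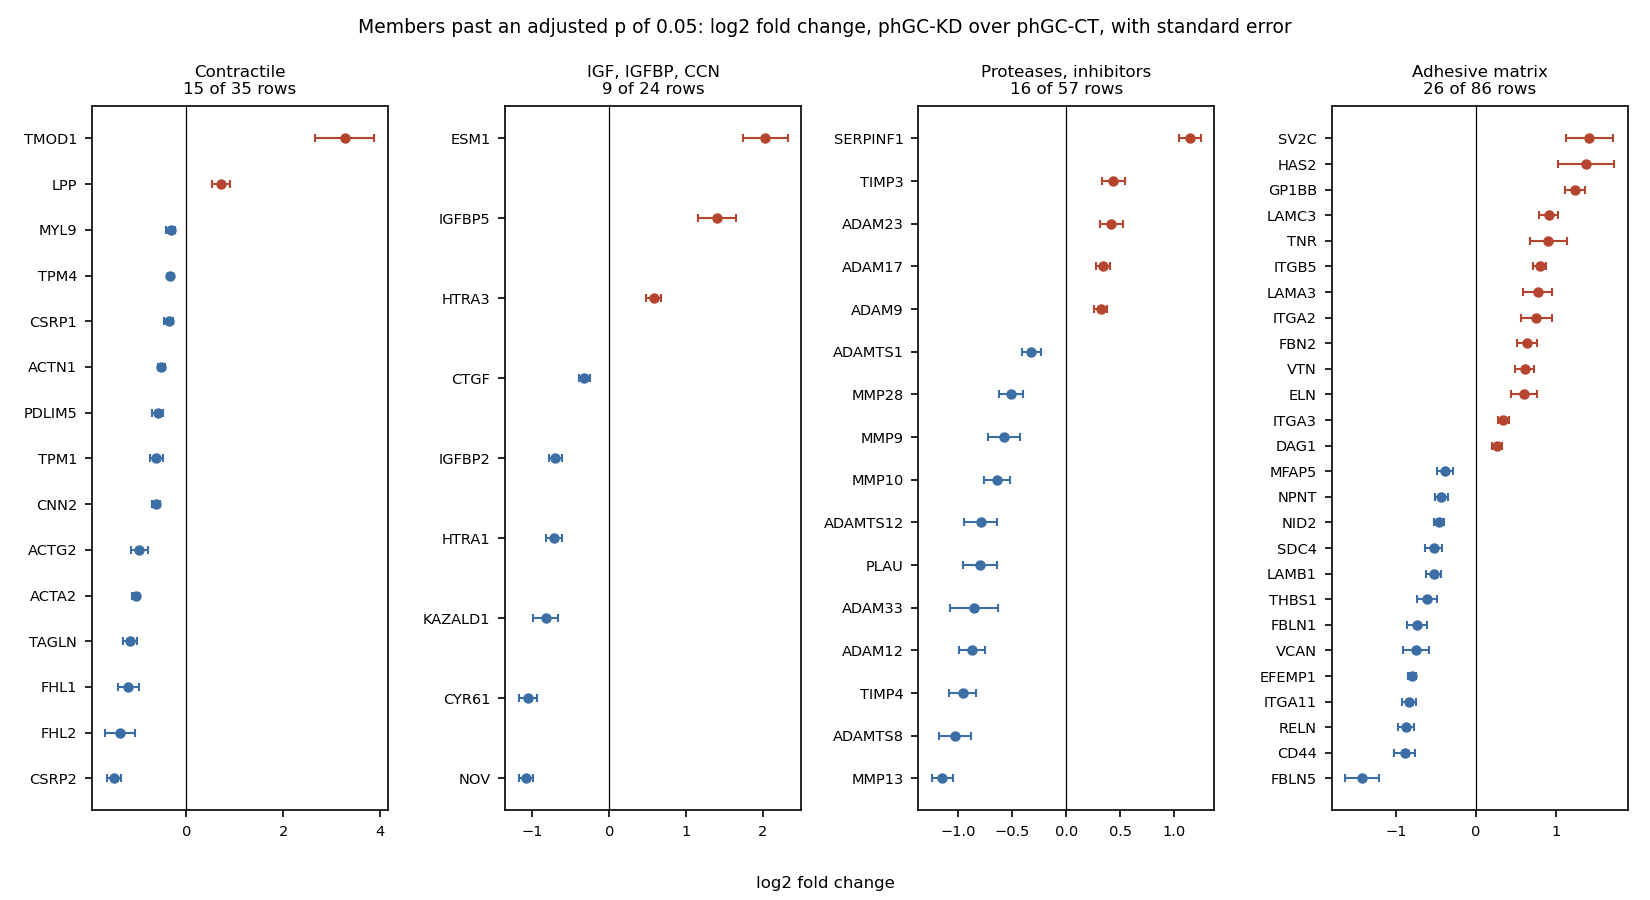
Log2 fold change of phGC-KD over phGC-CT (horizontal axes, bars are standard errors) for the members that passed an adjusted p of 0.05 in 4 lists, red for rises and blue for falls. Falls make up 13 of 15 contractile members, 6 of 9 members of the IGF, IGFBP and CCN families, 11 of 16 proteases and inhibitors, and 13 of 26 adhesive proteins.

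Cytokines, chemokines and their receptors gave 9 rises and 8 falls in 76 rows (median log2 fold change -0.08), with 4 rises without phGC-KD 3, phGC-CT 2 or phGC-CT 4, and 4 falls without phGC-CT 4. Some receptors of the interleukin 6 type lay among the rises, a grouping made after the values were seen. Receptors of this type that did not pass were not counted. OSMR, the receptor subunit for oncostatin M, had 1340, 1277, 1150 and 1692 normalized counts in phGC-KD, against 474, 714, 629 and 658 in phGC-CT (log2 fold change 1.14, SE 0.16, edgeR adjusted p = 0.00345). IL31RA, which pairs with OSMR for interleukin 31 in mammals, had 654, 709, 549 and 536 in phGC-KD, against 314, 223, 190 and 305 in phGC-CT (1.25, SE 0.18, edgeR adjusted p = 0.0043). Both had every phGC-KD library above every phGC-CT library. IL6ST, the shared signal chain gp130, had 7169, 5442, 6083 and 5400 in phGC-KD, against 4670, 4247, 3392 and 3995 in phGC-CT (0.56, SE 0.12, edgeR adjusted p = 0.021). The groups were apart, but without phGC-KD 3, phGC-CT 2 or phGC-CT 4 the call was lost (edgeR adjusted p up to 0.0663), and LIFR (0.60, SE 0.15) was lost in 7 of the 8 such fits.

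Falls among these genes included CCL4, FLT1, a receptor of vascular endothelial growth factor (-0.59, SE 0.10), the death receptor FAS (-0.67, SE 0.10) and TNFSF15, a ligand of the tumour necrosis factor family (-0.72, SE 0.09). The kinases PIM1 (-0.65, SE 0.10) and PIM3 (-0.63, SE 0.05), known as targets of STAT factors, fell too, and STAT6 rose (0.48, SE 0.08). The JAK, STAT and SOCS list as a whole had 2 rises and 2 falls in 24 rows (median log2 fold change 0.15), and 1 rise in 6 of the 8 fits that left out 1 library, those without phGC-CT 1 and phGC-CT 3 excepted.

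Interferon-stimulated and antigen presentation genes gave 1 rise and 8 falls in 46 rows (17.4% lower, median log2 fold change -0.11). IRF1, an interferon regulatory factor, had 221, 187, 248 and 298 normalized counts in phGC-KD, against 493, 534, 542 and 512 in phGC-CT (log2 fold change -1.13, SE 0.14, edgeR adjusted p = 0.00248). OASL, an oligoadenylate synthetase-like protein, had 446, 363, 406 and 475 in phGC-KD, against 783, 998, 1162 and 610 in phGC-CT (-1.07, SE 0.19, edgeR adjusted p = 0.0105). TRIM25, a ubiquitin ligase of RNA sensing, had 6947, 6287, 7566 and 7608 in phGC-KD, against 11221, 11855, 10416 and 10976 in phGC-CT (-0.65, SE 0.08, edgeR adjusted p = 0.00188). No library crossed over in any of the 3. Without phGC-KD 3 or phGC-CT 2 the list had 4 falls, and its rise, of USP18, was lost without phGC-KD 3, phGC-KD 4 or phGC-CT 4.

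Wnt and Notch genes, both short-range signals of follicle cells, gave 2 rises and 9 falls in 60 rows (15% lower, median log2 fold change -0.08), with 6 to 9 falls when single libraries were left out. Beside LFNG, the Notch target NRARP fell (-0.56, SE 0.10). On the Wnt side, CTNNB1, beta-catenin, had 24153, 21527, 24210 and 24983 normalized counts in phGC-KD, against 32171, 32641, 31716 and 31184 in phGC-CT (log2 fold change -0.43, SE 0.06, edgeR adjusted p = 0.00346). FZD1, a Wnt receptor, averaged 9215 in phGC-KD and 12516 in phGC-CT (-0.44, SE 0.05, edgeR adjusted p = 0.00235), and a fit to all 16 libraries did not call it (edgeR adjusted p = 0.573). The secreted modulators split, with SFRP4 lower (-1.06, SE 0.15) and FRZB higher (0.53, SE 0.06). WNT4, a ligand of the female gonad, passed at 0.71 (SE 0.16) from means of 90.0 in phGC-KD and 55.1 in phGC-CT, and was lost in 6 of the 8 fits that left out 1 library. Without phGC-CT 1 the list had 4 rises.

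In the MAP kinase list 2 rows rose and 4 fell of 46 (median log2 fold change -0.10), with the phosphatases DUSP7 higher (0.48, SE 0.07) and DUSP10 lower (-0.44, SE 0.08), and 1 fall without phGC-KD 3 or phGC-CT 4, and 1 rise without phGC-KD 4, phGC-CT 2 or phGC-CT 3. Cyclic nucleotide signalling gave 3 rises and 6 falls in 48 rows (median log2 fold change -0.01), with 3 falls without phGC-CT 2 and 5 rises without phGC-CT 1. PDE7B, a phosphodiesterase of cyclic AMP, and RGS3, which curbs G-protein signals, rose (1.01, SE 0.16, and 0.73, SE 0.09). NPR3, the clearance receptor of natriuretic peptides, had 2232, 1813, 1715 and 1774 normalized counts in phGC-KD, against 4637, 3350, 2619 and 3196 in phGC-CT (-0.87, SE 0.17, edgeR adjusted p = 0.0136). NPR2, the receptor of C-type natriuretic peptide, fell as well (-0.60, SE 0.11). The control libraries of NPR3 were spread widely, yet all lay above phGC-KD.

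Lipid transport and storage gave 10 rises and 2 falls in 43 rows (23.3% higher, median log2 fold change 0.14), with 3 rises without phGC-KD 1. ABCA1, which loads cholesterol onto APOA1, had 7375, 5835, 4986 and 5712 normalized counts in phGC-KD, against 3095, 3048, 2320 and 2842 in phGC-CT (log2 fold change 1.08, SE 0.13, edgeR adjusted p = 0.00227). ABCG1, a second exporter of sterols, had 3427, 2797, 2716 and 2755 in phGC-KD, against 1986, 1464, 1305 and 1519 in phGC-CT (0.90, SE 0.14, edgeR adjusted p = 0.0051). Library 1 was the highest of its own group for both genes, and no groups overlapped. LIPG, the endothelial lipase, rose (0.58, SE 0.07), whereas FABP7 fell and SCARB1, the receptor of high-density lipoprotein, passed at -0.48 (SE 0.10), a call lost in 5 of the 8 fits that left out 1 library. Cholesterol synthesis and uptake gave 3 rises in 30 rows, HMGCS1, SREBF1 and LIPA at 0.25 to 0.35, all 3 lost without phGC-CT 4 (median log2 fold change 0.06).

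The prostaglandin list gave 2 rises and 3 falls in 20 rows (median log2 fold change 0.17). Falls numbered 2 without phGC-KD 1, phGC-KD 2, phGC-KD 3, phGC-KD 4, phGC-CT 2 or phGC-CT 4, and 4 without phGC-CT 1. HPGDS, the synthase of prostaglandin D2, had 25366, 34904, 25992 and 30832 normalized counts in phGC-KD, against 51568, 41505, 58908 and 45942 in phGC-CT (log2 fold change -0.76, SE 0.13, edgeR adjusted p = 0.00996). HPGD, the dehydrogenase that inactivates prostaglandins, had 1129, 1320, 1052 and 1156 in phGC-KD, against 772, 660, 573 and 653 in phGC-CT (0.81, SE 0.11, edgeR adjusted p = 0.00348). The synthase was lower and the inactivating enzyme higher in every phGC-KD library. PLA2G4A, the phospholipase that frees arachidonic acid, fell (-0.60, SE 0.11).

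Mitosis and replication genes differed little, as 3 of 65 rows fell, RRM2, TYMS and CENPF (4.62%, near the background, median log2 fold change 0.01), and without phGC-CT 4 all 3 were lost. Of 27 rows of cyclins, kinase inhibitors and p53 targets 1 rose and 3 fell (median log2 fold change -0.03). BTG2, an antiproliferative gene, had 10107, 10685, 10966 and 12233 normalized counts in phGC-KD, against 17067, 16674, 18417 and 17669 in phGC-CT (log2 fold change -0.67, SE 0.07, edgeR adjusted p = 0.00113). MYC, a growth-promoting transcription factor, had 1693, 1425, 1783 and 1789 in phGC-KD, against 2450, 2221, 2664 and 2438 in phGC-CT (-0.55, SE 0.09, edgeR adjusted p = 0.00839). Neither gene had overlapping groups. CDKN1A, the cyclin-dependent kinase inhibitor p21, passed at 0.50 (SE 0.10, edgeR adjusted p = 0.0167), a call lost without phGC-KD 4, phGC-CT 2 or phGC-CT 4 (edgeR adjusted p up to 0.0608). Among 38 apoptosis rows 2 rose and 3 fell (median log2 fold change -0.04), with 1 rise without phGC-KD 1, phGC-KD 3, phGC-KD 4 or phGC-CT 2. RIPK3, a kinase of necroptosis, fell (-0.44, SE 0.06), and BCL2L1, which holds back apoptosis, rose (0.48, SE 0.08, edgeR adjusted p = 0.0073), though not in a fit to all 16 libraries (edgeR adjusted p = 0.217).

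Solute carriers gave 18 rises and 12 falls in 232 rows (median log2 fold change 0.00), and without phGC-KD 3 or phGC-CT 4 there were 6 falls. SLC26A3, an anion exchanger, had 409, 353, 340 and 363 normalized counts in phGC-KD, against 62.4, 50.8, 73.6 and 90.6 in phGC-CT (log2 fold change 2.40, SE 0.18, edgeR adjusted p = 0.000364). SLC2A3, a glucose transporter, had 7048, 8365, 7652 and 9045 in phGC-KD, against 5059, 4509, 5406 and 5255 in phGC-CT (0.67, SE 0.09, edgeR adjusted p = 0.00345). Both carriers kept the groups apart, SLC26A3 by a wide margin. SLC1A6, a glutamate transporter, rose (1.20, SE 0.14), and SLC25A13, a mitochondrial aspartate and glutamate carrier, fell (-0.72, SE 0.10). Glycolysis and hypoxia gave 6 rises and 4 falls in 41 rows (median log2 fold change 0.05), with LDHA, lactate dehydrogenase, higher (0.43, SE 0.07), and 2 falls without phGC-CT 4.

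Ion channels gave 10 rises and 4 falls in 102 rows (9.8% higher, median log2 fold change 0.05), with 4 rises without phGC-KD 4 and 1 fall without phGC-KD 1, phGC-KD 2 or phGC-CT 4. Of the 46 potassium channel rows in the list, a grouping made after the values were seen, 9 rose and 2 fell. KCNK5 and KCNK1, leak channels that set the resting potential, rose (1.02, SE 0.15, and 0.87, SE 0.11). Cell junction genes gave 5 rises and 4 falls in 51 rows (median log2 fold change -0.04), with 2 rises without phGC-KD 1, phGC-KD 3, phGC-KD 4, phGC-CT 3 or phGC-CT 4, and 8 without phGC-CT 1. CLDN1, a claudin of tight junctions, averaged 9331 normalized counts in phGC-KD and 15689 in phGC-CT (-0.75, SE 0.13, edgeR adjusted p = 0.00914), and CDH11, a cadherin of mesenchyme, fell (-1.07, SE 0.13). Genes of neuronal adhesion and guidance gave 7 rises and 5 falls in 70 rows (median log2 fold change 0.11), ASTN2 first among them, with 4 rises without phGC-CT 4 and 1 fall without phGC-KD 3, phGC-KD 4 or phGC-CT 2. Genes of stress in the endoplasmic reticulum gave 3 rises and 3 falls in 43 rows (median log2 fold change -0.02), and all 3 falls were lost when any 1 library other than phGC-KD 2 or phGC-CT 1 was left out. Its rises numbered 1 without phGC-KD 1, phGC-CT 2, phGC-CT 3 or phGC-CT 4.

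Of 74 rows of ribosomal protein genes 5 fell (6.76%, beside 4.91% of all rows), RPS27A, RPS2, RPS13, RPS24 and RPS7. In sign, 73 of the 74 were lower in phGC-KD, beside 7025 of all 13829 rows. Their median log2 fold change was -0.24, against -0.01 over all rows. RPS27A had 11246, 12324, 13351 and 12500 normalized counts in phGC-KD, against 15618, 18427, 20630 and 17600 in phGC-CT (log2 fold change -0.55, SE 0.09, edgeR adjusted p = 0.00792). Library phGC-CT 1 was the lowest control for RPS27A, and without it 41 of the 74 rows fell. Without phGC-KD 1, phGC-KD 4, phGC-CT 2, phGC-CT 3 or phGC-CT 4 there were 2 falls. Respiratory chain genes showed 53 of 62 rows lower in sign (median log2 fold change -0.15) with 1 fall, that of UQCR10, lost without phGC-KD 1, phGC-KD 3, phGC-KD 4, phGC-CT 2 or phGC-CT 4, and 7 falls without phGC-CT 1.

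Translation initiation genes gave 6 falls in 46 rows (13%, median log2 fold change -0.06), EIF5A2 (-0.57, SE 0.08) the steepest, and 2 without phGC-CT 4. Proteasome genes gave 2 falls in 36 rows, and 1 in each fit that left out 1 library. Cytochrome P450 genes gave 2 falls in 27 rows, and 1 without phGC-KD 1, phGC-KD 3, phGC-KD 4 or phGC-CT 3. Zinc finger genes gave 1 rise and 5 falls in 86 rows, with 4 rises without phGC-CT 1 and 1 fall without phGC-KD 1. Among 46 rows of RAB GTPases 2 rose and 3 fell, RAB31 (-0.58, SE 0.06) the steepest, with 4 rises without phGC-CT 1 and both rises lost without phGC-KD 1 or phGC-CT 2. The ubiquitin enzymes gave 1 rise in 36 rows, UBE3A, lost without phGC-KD 1, phGC-KD 2, phGC-KD 3, phGC-CT 2 or phGC-CT 4, and 2 rises and 2 falls without phGC-CT 1. Beside the 9.97% of all rows, the share that passed in either direction was 13% for translation initiation and 10.9% for the RAB list, and lower in the other 4 of these lists.

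The study measured a list of its differentially expressed genes by quantitative PCR and describes their selection as random. It reports a positive correlation of these values with its RNA-seq in phGC. Besides FOXL2, which did not pass, the list held 32 rows, and all of these passed, 21 higher and 11 lower. Because they came from genes the study had already called, their count is not independent evidence of direction. Among them DIRAS2, a small GTPase of the Ras family, had 256, 228, 175 and 173 normalized counts in phGC-KD, against 16.4, 16.6, 27.5 and 44.2 in phGC-CT (log2 fold change 2.98, SE 0.34, edgeR adjusted p = 0.00157). SYTL2, a synaptotagmin-like protein of vesicle traffic, had 390, 312, 345 and 296 in phGC-KD, against 75.5, 66.3, 60.4 and 64.3 in phGC-CT (2.33, SE 0.14, edgeR adjusted p = 0.000141). Both were scarce in phGC-CT and several times higher in every phGC-KD library.

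Markers of other cells were followed as summed levels. Endothelial markers summed to 173 to 196 CPM in phGC-KD and 131 to 135.5 CPM in phGC-CT. This gap came from EGFL7 and CLDN5, which rose, while CDH5 fell and VWF, TEK and KDR were at most at 2.85 CPM. The fall of CDH5 was lost without phGC-KD 1, phGC-KD 4, phGC-CT 2 or phGC-CT 4. TIE1 lay at 5.71 to 11.7 CPM in phGC-KD, against 11.8 to 16.2 CPM in phGC-CT, and did not pass. The rise of CLDN5 was not called in a fit to all 16 libraries (edgeR adjusted p = 0.241), and the part of endothelial cells in that of EGFL7 was not tested. Blood and immune markers summed to 60.62 to 73.65 CPM in phGC-KD and 78.16 to 90.3 CPM in phGC-CT, with PTPRC and CD3E at most at 0.834 CPM. Most of this sum was CD74, at 41.6 to 54.9 CPM in phGC-KD, against 63.2 to 73.8 CPM in phGC-CT, a fall lost without phGC-KD 3, phGC-CT 2 or phGC-CT 4. LCP1 lay the other way, at 16.5 to 20 CPM in phGC-KD, against 12.9 to 15.5 CPM in phGC-CT, and did not pass. Pigment cell markers summed to 23.79 to 28.35 CPM in phGC-KD and 22.34 to 34.55 CPM in phGC-CT. Most of this sum was MITF, at 9.94 to 13.2 CPM in phGC-KD, against 9.64 to 22.1 CPM in phGC-CT, and PMEL. PMEL lay at 10.4 to 13.6 CPM in phGC-KD, against 11 to 16.2 CPM in phGC-CT, and neither passed. TYRP1 and IGSF11 rose from few counts, to at most 1.76 and 1.85 CPM in phGC-KD. MLANA and SOX10 were at 0 CPM in phGC-KD. Germ cell markers, nearly all ZP3, which granulosa cells of birds also make, summed to 16130 to 19700 CPM in phGC-KD and 14570 to 20640 CPM in phGC-CT. Surface epithelium markers summed to 680.3 to 841.2 CPM in phGC-KD and 694.5 to 803.1 CPM in phGC-CT. Of 4 rows tested, 2 were higher in sign and 2 lower, and 1 passed. This was KRT19, a keratin, which rose (log2 fold change 0.59, edgeR adjusted p = 0.00392). It lay at 308 to 363 CPM in phGC-KD, against 203 to 234 CPM in phGC-CT. KRT7 lay at 259 to 315 CPM in phGC-KD, against 239 to 249 CPM in phGC-CT, and did not pass. Within that list CDH1, E-cadherin, had 7474, 4934, 2590 and 2035 normalized counts in phGC-KD, against 7809, 9381, 10729 and 10306 in phGC-CT (log2 fold change -1.17, SE 0.37, edgeR adjusted p = 0.0799). The groups of CDH1 did not overlap, but its phGC-KD libraries ranged so widely that it did not pass, except without phGC-KD 1 and in DESeq2 (adjusted p = 0.0459).

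To show where phGC differed from pre-ovulatory cells, the effect of the siRNA in phGC minus that in poGC was tested in 1 model of all 16 libraries. The effect differed between the stages in 1367 of 14775 rows tested in this model (9.25%), 372 of them among the 1379 rows called in phGC. For FOXL2 the log2 fold change in this model was -0.42 in phGC and -0.69 in poGC, a difference of 0.27 (SE 0.17, edgeR adjusted p = 0.396). Of the 49 genes named by their size of change, FOXL2 included, 22 differed between the stages. Both sets of rows had been chosen by their change in phGC, which enters the difference, so neither count can be read against the 9.25%. C1R rose by 2.0 in phGC and 0.44 in poGC (difference 1.55, SE 0.12, edgeR adjusted p = 1.86e-06), and C1S by 1.23 in phGC with 0.22 in poGC (difference 1.02, SE 0.12, edgeR adjusted p = 7.64e-05). GSTT1, RLN1, FAM107B, STXBP5 and PLACL2 also had effects in phGC that were higher by 0.79 to 1.44.

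IGFBP5 had a log2 fold change of 1.42 in phGC and -0.10 in poGC (difference 1.52, SE 0.38, edgeR adjusted p = 0.0196). MDK had -1.10 in phGC and -0.03 in poGC (difference -1.06, SE 0.24, edgeR adjusted p = 0.0105), and LTBP2 -1.14 in phGC and -0.24 in poGC (difference -0.90, SE 0.10, edgeR adjusted p = 8.94e-05). The effect in poGC passed for LTBP2 (edgeR adjusted p = 0.0273) and did not for IGFBP5 (0.85) or MDK (0.931). In the other direction, PLAU had -0.79 in phGC and -1.79 in poGC (difference 1.00, SE 0.21, edgeR adjusted p = 0.00733), and BHMT -1.20 in phGC and -2.03 in poGC (difference 0.82, SE 0.15, edgeR adjusted p = 0.00238). For NR0B1, HSD17B1, CSRP2, ACTA2, NOV, MSX1 and COL6A3 the difference did not pass and lay between -0.13 and 0.18 on the log2 scale, with standard errors of 0.12 to 0.27. These genes lie near the line of equal effect in the plot of both stages.

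**Figure D5:**
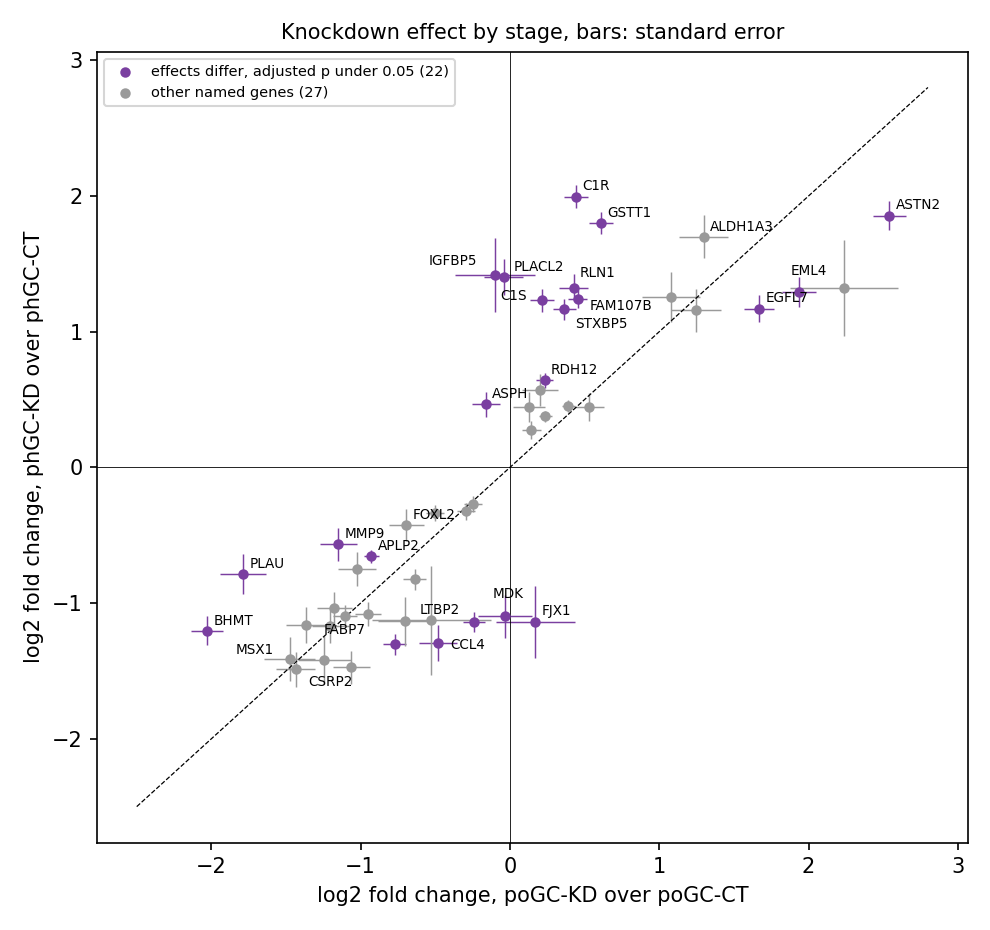
Log2 fold change of phGC-KD over phGC-CT (vertical axis) against that of poGC-KD over poGC-CT (horizontal axis) for the 49 named genes, bars are standard errors and the dashed line marks equal effects. Purple points (22) differ between the stages at an adjusted p of 0.05 and include C1R, GSTT1 and IGFBP5 with larger rises in phGC, and BHMT and PLAU with steeper falls in poGC. Grey points (27) do not pass.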

How the data were processed

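RNA of cultured granulosa cells was sequenced as paired-end poly(A) libraries, and the 4 phGC-KD and 4 phGC-CT libraries were analysed here, with the 8 poGC libraries in the model of both stages. The authors deposited, for each library, counts of reads per gene and FPKM per gene. The study's methods give TopHat2 and the Ensembl assembly Gallus_gallus-5.0, whereas the submitters' processing notes name HISAT2 2.1.0, StringTie 1.3.4d and DESeq2 1.26.0; the counting program and its strand setting are not given in the sources used here. Overlapping or antisense genes therefore cannot be told apart, and 187 of 18151 rows share a symbol with another row. No coordinates are given because the reference at hand, RefSeq GRCg7b, is of another build.

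From the counts, rows with low counts were removed (filterByExpr), library sizes were scaled by TMM, and phGC-KD was tested against phGC-CT by the quasi-likelihood test of edgeR 4.0.16 (R 4.3.3) with Benjamini-Hochberg adjustment over all rows tested and a threshold of 0.05. The stage difference was an interaction term in the same kind of fit to 16 libraries. FPKM served only to give levels. Each SE is the absolute log2 fold change divided by the square root of the F statistic of that test, and covers the spread between libraries. Totals of 29979116 counts or more per library limit precision mainly for rare transcripts. These totals exceed the clean read pairs that the study lists for the libraries, so separate fragments are fewer than counts. The scripts were tested on simulated data. Replicate numbers were not treated as pairs, since libraries with the same number did not deviate together (correlations 0.124, -0.0751, -0.01 and -0.0886). Alternatives were upper-quartile scaling, DESeq2 1.42.0, other count filters, a replicate block, all 16 libraries in one fit, and leaving out each library. Leaving out phGC-KD 2 and phGC-CT 1 together was chosen after seeing the data.

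The comparison, the gene lists and the tests were chosen with earlier results of these data known. Named genes are FOXL2, list members, the 15 largest log2 rises and falls among rows with an adjusted p under 0.05, fold change above 1.5, no overlap of the groups and a mean of at least 500 normalized counts, and the 10 largest rises and falls in mean counts among rows past the threshold. Some genes that meet this rule are not reported here.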

Additional observations from a re-analysis of the deposited data

Results flagged for a closer look

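In 24 of 376 groups of 4 libraries examined (188 genes, both groups), 1 library lay apart from the other 3 by Dixon's criterion, and chance alone marks about 5% of groups. Among phGC-KD libraries, phGC-KD 1 was high for EML4 (9028 normalized counts, the others at most 7404), LTBP2 (661), FOXO1 (815), LTBP1 (15780) and ABCG1 (3427). Library phGC-KD 2 was high for NR0B1 (2662, the others at most 1570), HTRA1 (450), FZD2 (303), RGS3 (2241) and CD59 (24660), and low for TIMP3 (30393) and FGFR3 (241). Library phGC-KD 3 was high for IGFBP5 (24933, the others at most 12832), PIM3 (2336) and SLC25A13 (1969). Library phGC-KD 4 was high for FAM107B (5513) and low for RAB31 (2562). Among phGC-CT libraries, phGC-CT 1 was high for BMP5 (152) and EFEMP1 (20580), phGC-CT 2 high for NTN4 (2634) and low for WNT4 (50.8), and phGC-CT 3 high for IGFBP2 (13500) and RGS3 (1383) and low for ASPH (25382).

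The effect of the siRNA differed between phGC and poGC for 22 of 49 named genes (edgeR interaction, adjusted p under 0.05), beside 1367 of all 14775 rows (9.25%). The named genes had been chosen by their change in phGC, which enters the difference. The log2 fold change in phGC minus that in poGC was 1.55 for C1R, 1.02 for C1S, 1.19 for GSTT1, 1.52 for IGFBP5, 1.44 for PLACL2, 0.90 for RLN1, 0.79 for FAM107B, 0.80 for STXBP5, 0.62 for ASPH and 0.41 for RDH12. It was 0.82 for BHMT, 1.00 for PLAU, 0.59 for MMP9 and 0.27 for APLP2, which fell in both stages and more in poGC. It was -0.69 for ASTN2, -0.64 for EML4 and -0.50 for EGFL7, which rose in both stages and more in poGC. For genes that fell in phGC it was -0.53 for FABP7, -0.81 for CCL4, -0.90 for LTBP2, -1.31 for FJX1 and -1.06 for MDK.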

How the results depend on the processing

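The 1379 calls kept their direction in every setting where they were called again, and of 187 genes followed through the settings 60 lost their call in at least 1 and 0 reversed. DESeq2, which also tested rows with low counts, called 1191 rises and 1036 falls, and a fit to all 16 libraries 1432 and 1143. Leaving out 1 library gave 323 to 1124 rises and 339 to 825 falls, and leaving out both phGC-KD 2 and phGC-CT 1 gave 907 and 713. The log2 fold change of FOXL2 passed at -0.43 in DESeq2 (adjusted p = 0.0242), at -0.42 with 16 libraries (edgeR adjusted p = 0.0237) and at -0.62 without both of those libraries (edgeR adjusted p = 0.024), and ranged over -0.54 to -0.33 when 1 library was left out. With 1 library left out, FOXL2 passed only without phGC-KD 2 or phGC-CT 1. Replicate numbers were shared by the groups, but only the pair of libraries numbered 1 had a correlation above 0.1. A fit with the replicate number as a block gave 604 rises, 462 falls and -0.43 for FOXL2 (edgeR adjusted p = 0.134). Among the calls lost under the block were those of TIMP3, MMP10 (edgeR adjusted p = 0.0503) and ALDH1A2 (edgeR adjusted p = 0.0557). Leaving out single libraries ended the calls of APOA1, ACTB and TIMP3, among others, and the cause was not tested. The FOXL2 transcript stayed well counted in phGC-KD, and 4 libraries a group limit what can be called.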

Other observations

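Gene families that no list of the report covers were gathered after the values had been seen, so their counts are descriptions without a test. Among all rows tested, 5.06% rose and 4.91% fell, and in sign 6804 were higher and 7025 lower. Complement components and the alpha-2-macroglobulin family, soluble defence proteins and protease traps, had 8 rises and 3 falls in 20 rows (median log2 fold change 0.10). Beside C1R and C1S, C7, a part of the membrane attack complex, averaged 162 normalized counts in phGC-KD and 74.3 in phGC-CT (log2 fold change 1.12, SE 0.15), and A2M, alpha-2-macroglobulin, 164 in phGC-KD and 66.2 in phGC-CT (1.30, SE 0.20). Among those that fell was CD59, which shields cells from complement, with 20765, 24660, 21256 and 21052 in phGC-KD, against 27154, 28366, 28754 and 26903 in phGC-CT (-0.34, SE 0.07). The fall of CD59 was lost without phGC-KD 3 or phGC-CT 2 (edgeR adjusted p up to 0.0524). Without phGC-CT 4 the family had 5 rises, and without phGC-KD 1, phGC-KD 3, phGC-CT 2 or phGC-CT 4 it had 1 fall.

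Genes of retinoid metabolism had 4 rises and 4 falls in 31 rows (median log2 fold change -0.10). With ALDH1A3 and RDH12, LRAT, which esterifies retinol for storage, was higher, at a mean of 243 normalized counts in phGC-KD and 125 in phGC-CT (0.96, SE 0.20). ALDH1A2, another retinal dehydrogenase, was lower, at 663 in phGC-KD and 917 in phGC-CT (-0.47, SE 0.10), as was TTR, transthyretin, a carrier of retinol-binding protein, at 1122 in phGC-KD and 2213 in phGC-CT (-0.98, SE 0.11). The call of LRAT was lost without phGC-KD 4, phGC-CT 2, phGC-CT 3 or phGC-CT 4 (edgeR adjusted p up to 0.0627), and that of ALDH1A2 without phGC-KD 4 or without phGC-KD 2 and phGC-CT 1 together (edgeR adjusted p up to 0.0554). Without phGC-KD 4 there were 2 falls. Fibroblast growth factors, their receptors and midkine had 5 falls in 17 rows (29.4%, median log2 fold change -0.24), and 8 of the 17 were higher in sign. Midkine, MDK, was already among the steepest falls named above. Leaving out single libraries left 4 to 6 falls and up to 2 rises. The call of the receptor FGFR3 was lost in 6 of the 8 fits that left out 1 library. FGF16 averaged 448 in phGC-KD and 938 in phGC-CT (-1.07, SE 0.14), FGF9 30.5 in phGC-KD and 82.0 in phGC-CT (-1.42, SE 0.25), and the receptor FGFR4 392 in phGC-KD and 626 in phGC-CT (-0.68, SE 0.11).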
